A study of Drosophila melanogaster with 6 samples.

Results

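The sperm leucyl aminopeptidases of Drosophila melanogaster are a family of 8 genes among the 16942 gene identifiers named in the deposited counts. Members were taken by name: every gene whose FlyBase symbol begins with S-Lap, plus loopin-1. They are S-Lap1, S-Lap2, S-Lap3, S-Lap4, S-Lap5, S-Lap7, S-Lap8 and loopin-1, and all 8 had counts in all 6 libraries. The rule used no measured value, though the family was proposed with earlier results of these data known.

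Leucyl aminopeptidases are metal-dependent enzymes that remove residues from the amino end of peptides. The sperm members of the family are transcribed in the testis, and their proteins are among the most abundant of the mature fly sperm, where they fill the mitochondrial derivatives that run along the flagellum. Testes lie in the abdomen, so the family serves as a marker of late male germline RNA.

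The libraries came from Dahomey wild-type males that had been exposed to rivals. There were 3 pools, each of 40 body parts: abdomens after 2 h with rivals, heads with thoraces after 26 h, and heads with thoraces after 2 h. Each pool was divided into 2 libraries, called split library 1 and split library 2, which were sequenced with single 50 nt reads. The series was made to ask what such a division costs and gains. All males were raised at 100 larvae per vial, held 10 to a vial, and housed singly from 1 d of age for 5 days. No pool without rivals and no abdomen pool at 26 h was analysed here, so time and length of exposure cannot be told apart. Because each group is 1 pool, every SD and p-value below covers only the technical spread between its split libraries and compares pools, not conditions.

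Total counts ranged from 21070598 to 34217543 per library, and 14694 genes passed the filter on low counts. The body part labels were checked against marker lists. All 5 eye, 4 neuron and 4 flight muscle genes were called lower in abdomen than in 2 h head-thorax, with median log2 ratios of -10.61, -3.41 and -6.07. All 7 accessory gland genes and both ejaculatory bulb genes were called higher there, with medians of 9.52 and 9.82. So were all 3 Malpighian tubule genes (median 4.02). The midgut list was mixed, with 3 of 5 genes called higher, LysP called lower at -4.58, and Amy-p, at -0.87, not called. A gene was called when the adjusted p was under 0.05 and the fitted difference was at least 2-fold (edgeR quasi-likelihood test, Benjamini-Hochberg adjustment over all tested genes). By this rule 35.6% of all tested genes were called higher in abdomen and 21.7% lower.

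The 8 genes lie on 2 chromosome arms, 4 on 3L and 4 on 2R, in positions given on BDGP6.54. On 3L, S-Lap1 (8617235 to 8619474, plus strand) and S-Lap2 (8619888 to 8622091, plus strand) are adjacent, with 413 bp between them and no gene in the gap. S-Lap3 (10465187 to 10468974) and S-Lap4 (10490861 to 10492934), both on the plus strand, are 21.9 kb apart with 1 gene between. On 2R, S-Lap8 (16491100 to 16493233) and loopin-1 (16534943 to 16537086), both on the plus strand, are 41.7 kb apart with 2 genes between. S-Lap5 (13596677 to 13598750, plus strand) and S-Lap7 (13778124 to 13780245, minus strand) are separated by 179.4 kb and 11 genes. The exons of S-Lap4, S-Lap5, S-Lap7 and loopin-1, merged over transcripts, each form 1 block. S-Lap7 and loopin-1 have 2 transcripts each.

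The annotation places 3 members over another gene. S-Lap4 lies in an intron of Rbfox1, an RNA-binding splicing regulator, and S-Lap7 lies inside the span of Cpr50Ca, a cuticle protein gene on the opposite strand. Neither shares a base with the exons of its host. In abdomen S-Lap7 had 70669 counts and Cpr50Ca 70884, in 26 h head-thorax they had 299 and 324, and in 2 h head-thorax they had 121 and 141. The host was therefore above its nested gene by only 215, 25 and 20 counts. Rbfox1 had 57693 counts in abdomen, where S-Lap4 had 52944, but 8485 against 329 in 26 h head-thorax and 7365 against 109 at 2 h. How reads in nested genes were counted is not given in the sources used here, but both hosts had more counts than their nested gene in every pool. The host counts may therefore hold reads of the nested genes. Whether the values of S-Lap7 also hold reads of Cpr50Ca, and those of S-Lap4 reads of Rbfox1, was not tested. In both pairs the sources cannot be told apart. S-Lap2 shares 53 bp with GAPsec, which had 326 counts in abdomen against 47135 for S-Lap2, and 446 against 193 in 26 h head-thorax. The other 5 members overlap no gene. Whether members share reads with each other was not tested, since no sequences were used, but no gene had the same counts as any member in all libraries.

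In abdomen the family was abundant. Its 8 genes took 0.779% of all counts in split library 1 (exact Clopper-Pearson 95% interval 0.775% to 0.783%) and 0.800% in split library 2 (0.797% to 0.803%). Intervals on shares and ratios cover counting error only. In 26 h head-thorax they took 0.00337% and 0.00283%, and in 2 h head-thorax 0.00166% and 0.00109%. In summed CPM (counts scaled to a common library size by the trimmed mean of M values), the family stood at 7014 ± 108 in abdomen, 34.1 ± 4.35 in 26 h head-thorax and 14.1 ± 4.06 in 2 h head-thorax (SD, n = 2 split libraries each). The head-thorax levels were 0.486% and 0.201% of the abdomen level at 26 h and 2 h. In pools of body parts, fewer cells carrying a transcript and less of it per cell cannot be told apart.

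S-Lap1 gave the most counts in every library. It had 41008 and 62271 counts in the abdomen split libraries, 245 and 235 in 26 h head-thorax, and 157 and 65 in 2 h head-thorax. Its CPM were 1733 and 1764 in abdomen, 8.64 and 7.51 in 26 h head-thorax, and 4.91 and 2.97 in 2 h head-thorax. The values of the 3 pools did not overlap. S-Lap2, its immediate neighbour on the chromosome, stood at 794 and 803 CPM in abdomen, 3.42 and 3.07 in 26 h head-thorax, and 1.88 and 1.19 in 2 h head-thorax, the same order of pools at a lower level. The gene on the other side of S-Lap1, CG6282, was distributed the other way, with 13 and 20 counts in abdomen, 655 and 690 in 26 h head-thorax, and 796 and 580 in 2 h head-thorax.

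The second member by CPM in abdomen was S-Lap7, with 1173 and 1216 CPM there, 5.40 and 4.67 in 26 h head-thorax, and 2.57 and 1.78 in 2 h head-thorax. loopin-1 had 1039 and 1058 CPM in abdomen, 5.40 and 4.38 in 26 h head-thorax, and 2.22 and 0.958 in 2 h head-thorax. S-Lap4 had 890 and 904 CPM in abdomen, 6.21 and 4.89 in 26 h head-thorax, and 2.29 and 1.64 in 2 h head-thorax. In each of these 3 genes the 3 pools were again separate, with abdomen far above both head-thorax pools and 26 h above 2 h.

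S-Lap3 had 729 and 739 CPM in abdomen, 4.02 and 3.74 in 26 h head-thorax, and 1.60 and 1.60 in 2 h head-thorax, the only member whose 2 h split libraries gave the same level. S-Lap8 had 508 and 528 CPM in abdomen, 3.63 and 2.37 in 26 h head-thorax, and 1.32 and 1.05 in 2 h head-thorax. S-Lap5 was the weakest member: 72.6 and 79.1 CPM in abdomen, 0.423 and 0.384 in 26 h head-thorax, and 0.188 and 0.0456 in 2 h head-thorax. Its head-thorax values rest on 12 and 12 counts at 26 h and on 6 and 1 counts at 2 h. Over all 8 genes, both libraries of abdomen were above both of 2 h head-thorax, as they were in 49% of all genes tested. Both libraries of 26 h head-thorax were above both at 2 h in 8 of 8 members, against 34.1% of all genes tested, some of which had few head-thorax counts.

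**Figure D1:**
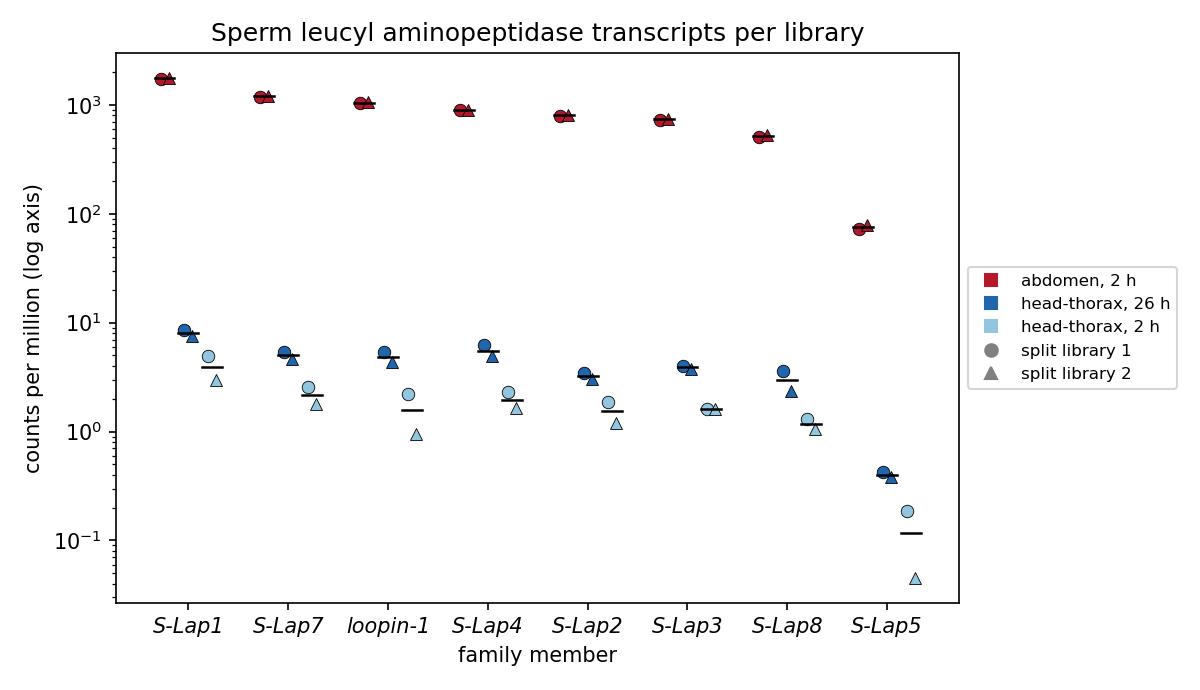
CPM (log axis) of each family member in every library. Circles are split library 1 and triangles split library 2 of the abdomen pool (2 h), the head-thorax pool at 26 h and the head-thorax pool at 2 h, and bars are means. Every gene shows the same order of pools, from S-Lap1 at 1749 CPM in abdomen to S-Lap5 at 75.8 CPM.

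Levels of different genes were compared per kilobase of merged exons. In abdomen S-Lap1 came first, at 824 ± 10.5 CPM per kb, followed by S-Lap7 at 563 ± 14.3, loopin-1 at 489 ± 6.17, S-Lap4 at 432 ± 4.76 and S-Lap2 at 382 ± 3.22 (SD, n = 2 split libraries). S-Lap8 at 252 ± 7.08 and S-Lap3 at 243 ± 2.21 CPM per kb were next, and S-Lap5 was last at 36.6 ± 2.21. Neighbours in this order were further apart than their SDs, except S-Lap8 and S-Lap3, whose ranges of mean ± SD overlapped. Their order turned round when S-Lap3 was scaled by its shortest transcript, which put it at 342 CPM per kb. S-Lap5 stood apart: it was 6.66-fold below S-Lap3, while the other 7 members spanned 3.39-fold.

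In the head-thorax pools the levels per kilobase were less well separated. At 26 h S-Lap1 had 3.81 ± 0.378 CPM per kb, above S-Lap4 at 2.68 ± 0.450, S-Lap7 at 2.37 ± 0.244 and loopin-1 at 2.28 ± 0.336 (SD, n = 2 split libraries). The ranges of mean ± SD of these last 3 genes overlapped, so their order is not settled. At 2 h S-Lap1 had 1.86 ± 0.650 CPM per kb, S-Lap7 1.02 ± 0.262, S-Lap4 0.947 ± 0.219 and loopin-1 0.742 ± 0.417, and each of these overlapped the next. S-Lap5 was the lowest again, with 0.195 ± 0.0136 CPM per kb at 26 h and 0.0563 ± 0.0485 at 2 h.

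In the comparison of abdomen with 2 h head-thorax, which separates the body part that holds the testes from the rest of the fly, all 8 members were called higher in abdomen. The background for this call was wide: 35.6% of the 14694 genes tested were called higher, 21.7% lower and 57.3% in either direction. The median of the 8 fitted log2 ratios was 8.90, against 0.06 over all genes tested. The smallest was 8.73 ± 0.05 (SE) for S-Lap1, a 424-fold difference (adjusted p = 6.31e-109, edgeR quasi-likelihood test, Benjamini-Hochberg). The largest was 9.26 ± 0.06 for loopin-1, 613-fold (adjusted p = 2.68e-106, same test).

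The other 6 ratios were close to these. They were 8.96 ± 0.06 for S-Lap2, 8.84 ± 0.06 for S-Lap3, 8.79 ± 0.06 for S-Lap4, 9.15 ± 0.13 for S-Lap5, 9.05 ± 0.05 for S-Lap7 and 8.74 ± 0.06 for S-Lap8 (log2 ± SE). Members thus spanned 0.53 on the log2 scale, although their abdomen levels per kilobase spanned 22.5-fold. That span was wider than counting error in at least one pair. The ratio from pooled counts was 615 for loopin-1 (exact 95% interval 501 to 763) and 425 for S-Lap1 (373 to 487), and these intervals did not touch. Without split library 1 of 2 h head-thorax the log2 ratio was 10.16 for loopin-1 and 10.64 for S-Lap5. No other member ratio of this comparison moved by over 1.5 times when 1 library was left out.

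**Figure D2:**
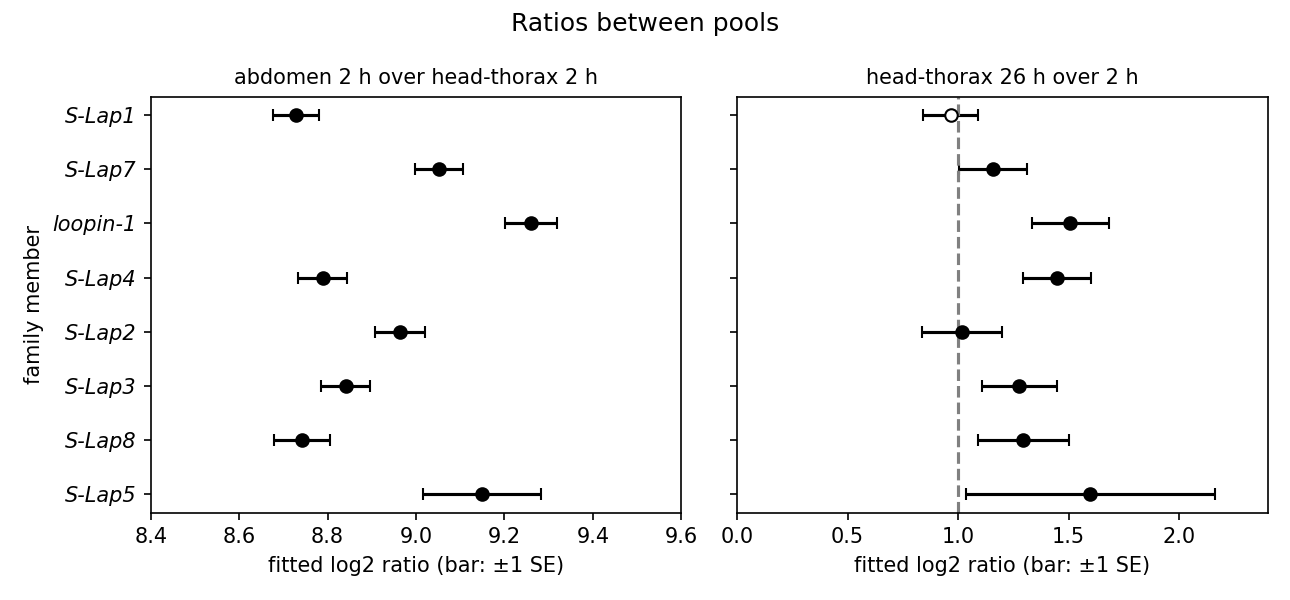
Fitted log2 ratio of each family member for abdomen over 2 h head-thorax (left, axis from 8.4 to 9.6) and for 26 h head-thorax over 2 h (right), with bars of 1 SE. Filled points were called, the open point (S-Lap1, right) fell short of the 2-fold line, drawn dashed. Abdomen ratios lie between 8.73 and 9.26 and the 26 h ratios between 0.97 and 1.60.

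The make-up of the family was similar in the 3 pools. S-Lap1 gave 24.9% of the family's counts in abdomen, 23.7% (exact 95% interval 21.9% to 25.6%) in 26 h head-thorax and 28.2% (25.1% to 31.5%) in 2 h head-thorax. loopin-1 gave 14.9% in abdomen, 14.3% (12.8% to 15.9%) at 26 h and 11.7% (9.52% to 14.1%) at 2 h. S-Lap4 gave 12.8% in abdomen, 16.3% (14.7% to 17.9%) at 26 h and 13.8% (11.5% to 16.4%) at 2 h. The abdomen share lay inside the counting interval of the head-thorax share for 4 of 8 members at 26 h and for 6 of 8 at 2 h. The largest departure was 3.49 percentage points, for S-Lap4 at 26 h, and the largest at 2 h was -3.27 points, for loopin-1. Of the 414449 family counts in abdomen, 2023 in 26 h head-thorax and 788 in 2 h head-thorax, S-Lap5 gave 1.09%, 1.19% and 0.888%.

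**Figure D3:**
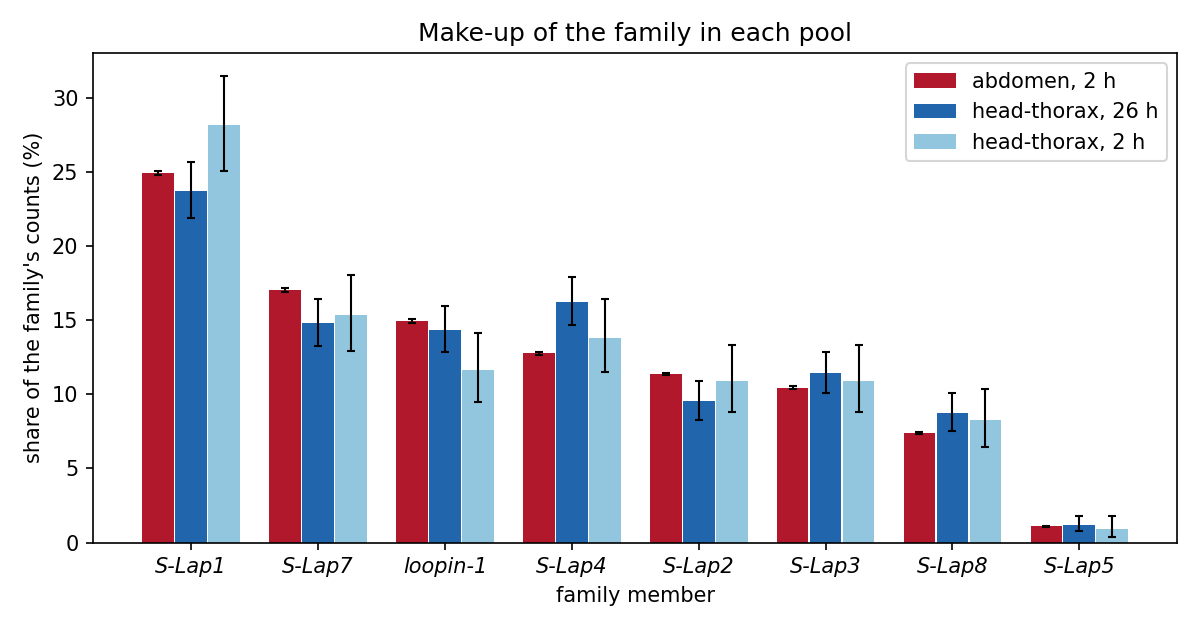
Share of the family's summed counts (%) taken by each member in abdomen, 26 h head-thorax and 2 h head-thorax, with exact 95% intervals for counting error. The order by abdomen share, from S-Lap1 at 24.9% to S-Lap5 at 1.09%, is nearly kept in head-thorax, where S-Lap4 at 26 h (16.3%) departs the most.

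The 26 h head-thorax pool was then compared with 2 h head-thorax, which asks whether RNA differed after longer exposure to rivals. This comparison shares its 2 h libraries with the one above. Of the 8 members, 7 were called higher at 26 h and none lower. Over all genes tested, 6.21% were called higher, 1.5% lower and 7.7% in either direction. The members' median log2 ratio was 1.29, against 0 over all genes. The summed family stood at 37.2 and 31.0 CPM in the 26 h split libraries, against 16.97 and 11.2 CPM in those at 2 h, a 2.42-fold ratio of means. All of these levels were under 0.7% of the abdomen level of the same gene, the highest being S-Lap4 at 0.619% at 26 h.

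loopin-1 had 153 and 137 counts at 26 h, against 71 and 21 at 2 h, a log2 ratio of 1.51 ± 0.17 (SE; adjusted p = 2.42e-12, edgeR quasi-likelihood test, Benjamini-Hochberg). The DESeq2 Wald test gave this gene a wider error, with 1.64 ± 0.47 (SE; adjusted p = 0.00292, DESeq2 Wald test). S-Lap4 had 176 and 153 counts at 26 h, against 73 and 36 at 2 h, a log2 ratio of 1.45 ± 0.15 (adjusted p = 8.81e-14, same edgeR test). These are the only 2 members that also passed when the 2-fold threshold was tested inside the model.

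S-Lap8 was 1.30 ± 0.20, S-Lap3 1.28 ± 0.17 and S-Lap7 1.16 ± 0.15 higher on the log2 scale (SE; adjusted p = 7.88e-08, 4.29e-10 and 4.94e-10, edgeR). S-Lap5 was 1.60 ± 0.56 higher (adjusted p = 0.0165, edgeR), on 24 counts at 26 h against 7 at 2 h. S-Lap2 was barely past the threshold at 1.02 ± 0.18 (adjusted p = 1.61e-06, edgeR). S-Lap1 was not called, because its log2 ratio of 0.97 ± 0.12, or 1.95-fold, fell short of 2-fold, although its adjusted p was 1.74e-10 (edgeR). All 8 exact 95% intervals of the pooled ratio held the values from 2.24 to 2.30. Such overlap cannot decide whether members differed in this ratio, which was not tested.

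The size of this difference depended on single libraries. In the least favourable of the 4 pairings of a 26 h with a 2 h library, the members' CPM ratios were between 1.53 (S-Lap1) and 2.34 (S-Lap3). Without split library 1 of 2 h head-thorax, all 8 members were called, and the log2 ratio was 2.34 for loopin-1 and 3.02 for S-Lap5. Without split library 2 of 2 h head-thorax, 4 members were called: S-Lap2 stood at 0.78, S-Lap7 at 0.96 and S-Lap1 at 0.71, and S-Lap5 had an adjusted p of 0.164 (edgeR). Without split library 1 at 26 h, 4 members were also called, with S-Lap8 at 0.97, S-Lap2 at 0.94 and S-Lap5 at an adjusted p of 0.0833 (edgeR).

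Split libraries of 1 pool were compared by a two-sided exact binomial test limited to genes with 10 or more counts in total. In abdomen all 8 members were lower in split library 1, by ratios of 0.918 to 0.988, while 45.2% of all genes were higher in it. S-Lap7 (ratio 0.965, adjusted p = 0.00051, exact binomial test) and S-Lap8 (ratio 0.961, adjusted p = 0.0416, exact binomial test) passed, 2 of 8 members against 1.83% of all genes. At an unadjusted p under 0.05 the counts were 5 of 8 members and 10.4% of genes.

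In the head-thorax pools the direction was the other one. At 26 h all 8 members were higher in split library 1, by ratios of 1.08 (S-Lap3) to 1.54 (S-Lap8), where 49.6% of all genes were. None passed the adjusted exact binomial test, as did 0.459% of genes, and 2 had an unadjusted p under 0.05, as did 6.72% of genes. At 2 h 7 of 8 were higher in split library 1, where 50.8% of all genes were, and S-Lap3 was level with a ratio of 1.00. The ratio was 2.32 for loopin-1 (adjusted p = 0.0594, exact binomial test) and 1.66 for S-Lap1 (adjusted p = 0.0684, exact binomial test). S-Lap5, with 7 counts, was below the count minimum. None of the 7 members tested passed the adjusted test, as did 0.638% of genes, and 3 had an unadjusted p under 0.05, as did 7.21% of genes. With raw library totals in place of scaled ones, 1 member passed at 2 h, S-Lap1 (adjusted p = 0.0475, exact binomial test).

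**Figure D4:**
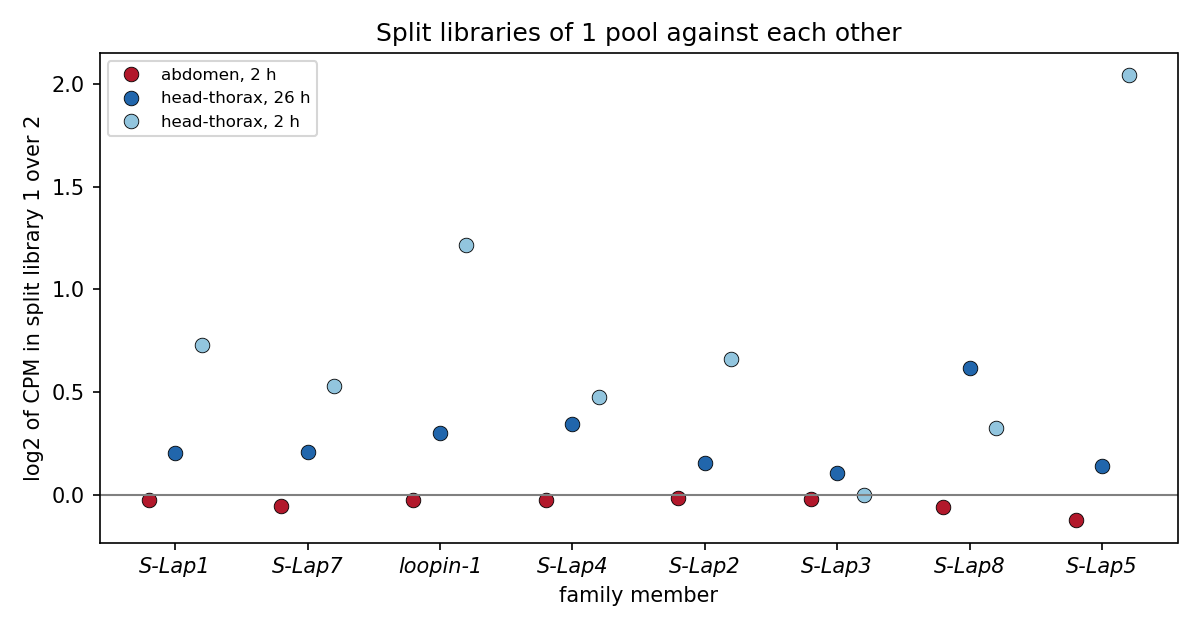
Log2 ratio of split library 1 over split library 2 for each member in abdomen, 26 h head-thorax and 2 h head-thorax; 0 means equal CPM. Abdomen points lie just below 0, 26 h points above 0, and the 2 h points reach furthest, up to a ratio of 4.12 for S-Lap5 on 7 counts.

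Transcripts of the accessory gland and the ejaculatory bulb were also found in head-thorax at under 1% of their abdomen level. The 7 accessory gland genes, which encode seminal fluid proteins, summed to 3276 CPM in abdomen, 5.85 to 8.36 CPM over the split libraries of 26 h head-thorax and 4.43 to 5.54 CPM at 2 h. The means were 0.217% and 0.152% of the abdomen level at 26 h and 2 h. The 2 ejaculatory bulb genes summed to 4210 CPM in abdomen, 7.99 to 9.67 CPM in 26 h head-thorax and 3.42 to 5.26 CPM at 2 h, or 0.210% and 0.103% of the abdomen level. No gene of these 2 lists was at 0 in a head-thorax pool. The Malpighian tubule and midgut lists stood higher. In head-thorax at 26 h and 2 h, 3 Malpighian tubule genes summed to 14.9% and 11.1% of the abdomen level. For 5 midgut genes it was 69.8% and 74.8%, but not all of these were higher in abdomen. Amy-p and LysP had log2 ratios of -0.87 and -4.58 for abdomen over 2 h head-thorax. Amy-p alone had 1997 of the 2952 CPM of the midgut sum in 2 h head-thorax.

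Between times no accessory gland or ejaculatory bulb gene was called. In the Malpighian tubule list NaPi-T was called higher at 26 h, with 9.40 CPM against 4.21 CPM at 2 h and a log2 ratio of 1.15 ± 0.11 (SE). Mal-A7 of the midgut was called higher as well, with 27.6 CPM at 26 h against 7.98 CPM at 2 h and a log2 ratio of 1.77 ± 0.07 (SE). The other 2 Malpighian tubule and 4 midgut genes were not called. Over all genes tested, 6.21% were called higher at 26 h. The median log2 ratio at 26 h over 2 h was 0.51 for the accessory gland list and 0.94 for the ejaculatory bulb list. Acp36DE, a seminal protein needed for sperm storage, had 4.45 CPM at 26 h and 2.55 CPM at 2 h, a log2 ratio of 0.78 ± 0.16 (SE). Acp76A of the same list went the other way, at -0.80 ± 0.33 (SE), and Acp26Aa stood at 0.09 ± 0.37. Ebp, a protein of the mating plug, had 6.70 CPM at 26 h and 3.24 CPM at 2 h, a log2 ratio of 0.98 ± 0.14 (SE). Split libraries of head-thorax were compared by summed list level. Split library 1 over 2 was 1.43 at 26 h and 1.25 at 2 h for the accessory gland sum, 1.21 and 1.54 for the ejaculatory bulb sum, and 1.2 and 1.51 for the family. The sums of the other lists given next did not share this pattern in both pools. The same ratios were 1.28 and 0.893 for sperm chromatin, and 1.00 and 1.00 for sperm tail and nebenkern. They were 0.966 and 1.12 for Malpighian tubule, 0.965 and 1.03 for midgut, and 0.999 and 0.997 for eye. The sperm tail sum was 77.5 CPM at 26 h and 58.6 CPM at 2 h. At 2 h it was 1.41% of its abdomen level, against 0.163% for betaTub85D of the same list. The list also holds nmd, at a log2 ratio of -0.02 for abdomen over 2 h head-thorax. Genes that were not far higher in abdomen thus enter this sum, and single genes differed from it. In split libraries 1 and 2, betaTub85D had 3.78 and 3.16 CPM at 26 h, and 1.69 and 0.548 at 2 h. For dj these values were 1.55 and 1.34 at 26 h, but 0.344 and 0.411 at 2 h. Mst98Ca had 3.25 and 2.75 CPM at 26 h, and 0.689 and 0.684 at 2 h. ocn had 1.83 and 1.66 CPM at 26 h, and 0.783 and 0.548 at 2 h. The part of RNA from other organs in the head-thorax values of the family was not tested.

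Other genes of the sperm were set beside the family, in lists chosen with earlier results of these data known. Of 22 tested genes of the sperm tail and of the nebenkern, the fused mitochondria of the spermatid, 21 were called higher in abdomen than in 2 h head-thorax, with a median log2 ratio of 8.88; the exception was nmd at -0.02 ± 0.05 (SE). At 26 h over 2 h, 13 of the 22 were called higher and none lower, with a median of 1.5. Over all genes tested, 35.6% were called higher in abdomen and 6.21% higher at 26 h. betaTub85D, the tubulin of the sperm axoneme, had 685 CPM in abdomen, 3.47 in 26 h head-thorax and 1.12 in 2 h head-thorax, a log2 ratio of 1.49 ± 0.20 between the times. dj, a sperm tail protein, had 346 CPM in abdomen, 1.45 in 26 h head-thorax and 0.378 in 2 h head-thorax, a log2 ratio of 1.95 ± 0.31. Mst98Ca, another tail protein, had 537, 3.00 and 0.687 CPM in these 3 pools, a log2 ratio of 2.11 ± 0.22.

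Some genes of the list did not move with the rest. Porin2, a mitochondrial porin, and Cyt-c-d, the testis cytochrome c, had log2 ratios of -0.61 and -0.21 at 26 h over 2 h, and neither was called. hale, which was picked out after its values were seen, stood far outside: it had 172 and 168 counts at 26 h, against 2 and 0 counts at 2 h, with 1140 and 1874 in abdomen. The ratio of its pooled CPM between the times was 154, with an exact 95% interval of 42.2 to 1273.

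Genes of sperm chromatin and of earlier stages were counted in the same way. The shares over all genes tested, 35.6% higher in abdomen and 6.21% higher at 26 h, apply here too. Of 7 sperm chromatin genes, all were called higher in abdomen (median log2 ratio 9.05), and 2, ProtA and ProtB, were called higher at 26 h (median 0.94). ProtA and ProtB are closely related protamine genes whose reads the counting could share, and had 4 and 7 counts at 2 h. Mst77F, a sperm chromatin protein, had 2.02 CPM at 26 h and 1.42 CPM at 2 h, a log2 ratio of 0.50 ± 0.21. Of 11 meiotic arrest genes, which switch on transcription in spermatocytes, all were called higher in abdomen (median 4.49) and 2, sa and nht, at 26 h (median 0.43), with nht at 0 counts at 2 h. Of 6 early germline genes, 4 were called higher in abdomen (median 2.38) and none at 26 h (median 0.10). Whether these lists differ from the family was not tested.

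**Figure D5:**
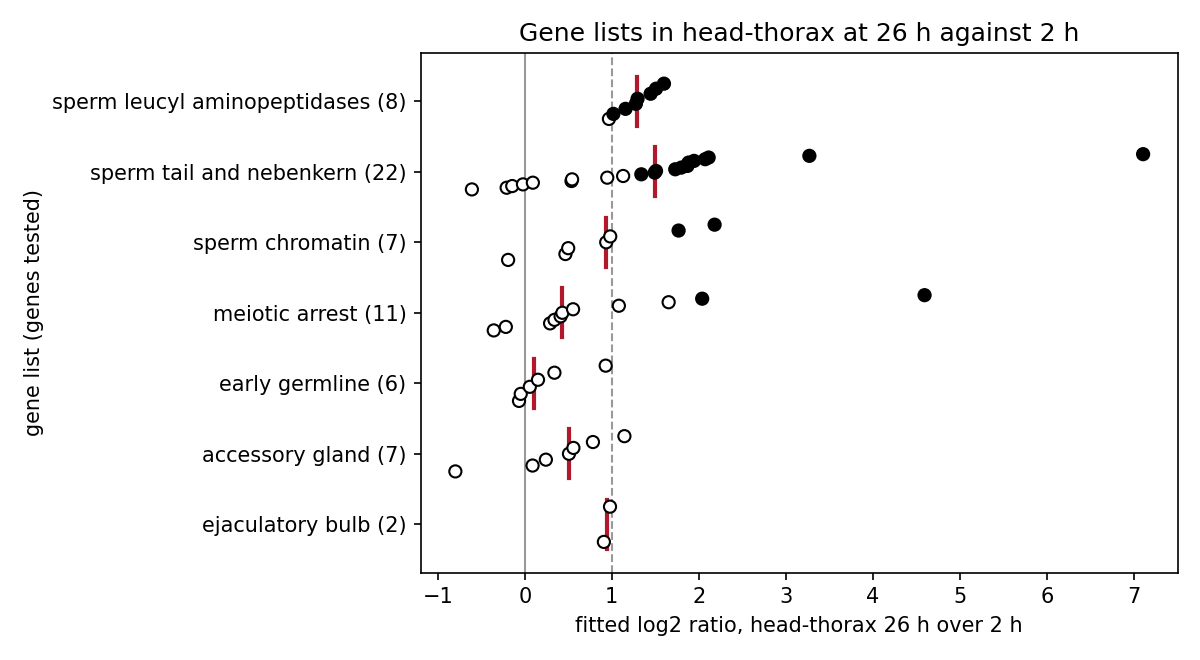
Fitted log2 ratio of 26 h head-thorax over 2 h for each tested gene of 7 lists, with filled points for called genes, red bars for list medians and a dashed line at 2-fold. The aminopeptidases lie between 0.97 and 1.60 (median 1.29). The farthest sperm tail point is hale, and the farthest meiotic arrest point is nht, whose fitted value depends on the prior count because it had 0 counts at 2 h.

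The genes whose levels over the 6 libraries were most like the family's were found by the root mean square difference of centred log2(CPM + 0.1) from the median profile of the members, among 5693 other genes with enough signal. The nearest was ocn, a testis gene of the list above, at 0.05, followed by CG17470 and tomboy20 at 0.08 each, and CG2127, which overlaps 1 other gene, and CG30376 at 0.09 each. tomboy20 encodes a testis form of a mitochondrial import receptor. The members' own distances were 0.11 for S-Lap1 to 0.29 for loopin-1. ocn had 351 and 342 CPM in abdomen, 1.83 and 1.66 in 26 h head-thorax, and 0.783 and 0.548 in 2 h head-thorax.

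Other leucyl aminopeptidase genes of the fly were looked up after the values of the family had been seen. grsm had 155 CPM in abdomen, 29.4 in 26 h head-thorax and 31.8 in 2 h head-thorax. It was called higher in abdomen with a log2 ratio of 2.27 ± 0.04 and stood at -0.12 ± 0.05 between the times. Dip-B, a dipeptidase of the same superfamily, had 93.1 CPM in abdomen, 56.2 in 26 h head-thorax and 75.2 in 2 h head-thorax, with log2 ratios of 0.31 ± 0.04 and -0.41 ± 0.04, and was called in neither comparison.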

How the data were processed

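RNA of 3 pools was measured, with 2 split libraries each. The authors deposited raw counts of reads for each FlyBase gene, not normalized; genes without reads are not listed and were set to 0. Aligner, counter, strand setting, build and annotation: not given in the sources used here. Of 16942 identifiers, 16735 matched a symbol in BDGP6.54, whose positions were used for naming, lengths and overlaps; 207 did not match.

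The 8 members and all lists were chosen with earlier results of these data known. Counts of all genes were fitted with edgeR 4.0.16 in R 4.3.3 (TMM scaling, filterByExpr, quasi-likelihood test, all 6 libraries in 1 fit, Benjamini-Hochberg adjustment over 14694 genes). The fit had 3 residual degrees of freedom and 84.62 prior degrees of freedom, shared over genes. The common coefficient of variation between split libraries, beyond counting error, was 1.63%. Calls needed an adjusted p under 0.05 and a 2-fold difference. Split libraries were compared by exact binomial tests (scipy 1.17.1) with the split expected from effective sizes. Intervals are exact, at 95%, for counting error only. Members are all named; of each list, up to 4 genes with the highest mean CPM could be named, and others were named after their values were seen. The likeness search used genes with at least 20 CPM in abdomen and 10 head-thorax counts. Only the edgeR fit and its calls were tested on simulated counts. Depth was 21070598 to 34217543 counts per library. Alternatives were DESeq2 1.42.0, other scalings, no filter, the fold tested inside the model, a replicate block and leaving out each library.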

Additional observations from a re-analysis of the deposited data

How the results depend on the processing

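All 104 member values of the abdomen comparison over the alternatives tried kept direction and call; of 104 at 26 h over 2 h, none reversed, 13 lost the call and 4 gained it. With only the members that overlap no other gene, 5 of 5 were called in abdomen and 4 of 5 at 26 h; this setting and the shortest-transcript length were chosen after the data were seen. With the 2-fold threshold tested inside the model, 2 members were called at 26 h, and the genes called over the whole table came to 405 (317 higher and 88 lower) against 1132. Leaving out each library in turn gave 4 to 8 members called at 26 h and 8 in abdomen. DESeq2 size factors and the DESeq2 Wald test called 8 members at 26 h, with S-Lap1 at 1.01 and 1.06, and raw totals called 6. The DESeq2 Wald test gave larger SEs than edgeR for every member. In the abdomen comparison they were 0.14 against 0.05 for S-Lap7 and 0.55 against 0.13 for S-Lap5. At 26 h over 2 h the adjusted p of S-Lap1 was 0.00182 (DESeq2 Wald test), against 1.74e-10 (edgeR). For S-Lap2, S-Lap3 and S-Lap7 it was smaller in DESeq2 than in edgeR. Raw totals put the summed family in abdomen at 7897 CPM against 7014, and the number of members that differed between split libraries of 2 h head-thorax at 1 against 0. They moved the median ratio of all genes by 0.21 in the abdomen comparison, and DESeq2 size factors by 0.14.

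A replicate block by split library number called 7 members at 26 h and 8 in abdomen. Split differences correlated across 14694 genes at -0.00387, 0.0111 and 0.0685 between pools, the last being the 2 head-thorax pools. Counting error enters every such difference, so these values cannot decide whether the numbers pair the libraries. Shared sequence windows, protein identity, a sequence search for relatives and a promoter motif search were not run. Depth limits S-Lap5 most, with 7 counts in 2 h head-thorax.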
